A study of Mus musculus with 14 samples.

Results

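The genes described here are 35 molecular chaperones and folding helpers of mouse cells, chosen by gene symbol: 12 of the cytosol, 7 subunits of the cytosolic chaperonin TRiC/CCT, 11 of the endoplasmic reticulum (ER), 4 of the mitochondria, and Hsf1, the transcription factor of the heat shock response. All 35 were listed in both gene tables, among 20875 genes of the culture experiment and 18855 genes of the mouse experiment. RNA labelled as from mouse CD4 T cells, the helper lymphocytes, was sequenced in 14 libraries to examine what TRAIL, a ligand of the TNF family that binds a death receptor, does to activated T cells. The 8 culture libraries were labelled lymph node CD4 T cells of wild type C57BL/6 mice, held in medium (n = 2), with antibodies to CD3 and CD28 at 1 mg/ml (n = 3), or with both antibodies and TRAIL at 10 ug/ml (n = 3). The 6 mouse libraries were labelled spleen CD4 T cells of C57BL/6 mice: TRAIL-R f/f mice given vehicle (n = 1), TRAIL-R f/f mice given TRAIL (n = 3), and Lck Cre TRAIL-R f/f mice given TRAIL (n = 2). The f/f label means that the receptor gene carries sites for Cre recombinase, and the Lck promoter drives Cre in the T lineage, so other cells of those mice would keep the receptor. No dose, time, age or disease state was labelled for the mice, and no label says that replicates were separate cultures or animals, so p-values measure the spread between libraries.

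Chaperones bind unfolded polypeptides and keep them from aggregating. HSP70 proteins work in cycles of ATP hydrolysis with J-domain partners (HSP40) and exchange factors such as HSP110 and BAG proteins, HSP90 proteins mature kinases and receptors, and TRiC/CCT encloses actin and tubulin in a closed ring. The ER has its own HSP70 and HSP90, lectin chaperones for glycoproteins and disulfide isomerases, and mitochondria fold imported proteins with an HSP70 and the HSP60/HSP10 ring. In general, HSF1 raises the cytosolic set through heat shock elements in DNA after heat or other stress, and the unfolded protein response raises the ER set through the ER stress element (ERSE). T cells enlarge and make more protein when they are activated.

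Sites of these responses in the promoters are shown first, because the expression results below are given by compartment and these elements are the known routes to the cytosolic and ER sets. Of the 35 genes, 29 had a promoter among the RefSeq sequences (GRCm38.p6), taken as the 250 bases before a start. The others, Hspa8, Hsp90aa1, Hsp90ab1, Cct4, Hspa9 and Hsf1, had none there and were not examined for sites. Of the 29, 6 have more than 1 start, and a gene was counted where any of its promoters held the match. The ERSE, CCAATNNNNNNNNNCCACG on either strand, was in 6 of 11 ER genes and in 0 of 9 cytosolic, 0 of 6 TRiC/CCT and 0 of 3 mitochondrial genes with a promoter, against 0.13% of all 27025 genes counted the same way. The sites are given on the strand of the gene with 3 bases on each side and the fixed letters in capitals, with coordinates for the 19-base site, and both sites of Hsp90b1 are shown.
Hspa5, chr2:34772025-34772043: tcaCCAATcggaggcctCCACGacg
Hsp90b1, chr10:86705638-86705656: agcCCAATcgcaaggagCCACGctt
Hsp90b1, chr10:86705533-86705551: gtgCGTGGtgaggcacgATTGGtga
Dnajc3, chr14:118937827-118937845: caaCCAATcagcgccaaCCACGacc
Pdia6, chr12:17266491-17266509: agaCCAATgaaaggcggCCACGgcg
Calr, chr8:84847075-84847093: acgCGTGGtcgaccctcATTGGccc
Canx, chr11:50325800-50325818: tgaCCAATcaccacgctCCACGaag
The Calr site and the second Hsp90b1 site are in the reverse orientation.

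A pair of facing heat shock units, GAANNTTC or TTCNNGAA on either strand, was in 9 of the 29 genes, against 14.5% of all genes: Hspa1a, Hspa1b, Hsph1, Dnaja1, Hspb1, Cct2, Cct5, Hspd1 and Hspe1, and 0 of the 11 ER genes. A run of 3 units (GAANNTTCNNGAA or TTCNNGAANNTTC, which contain the 2-unit form) was in a promoter of Hspd1 and of Hspe1, against 0.514% of all genes. Hspd1 (HSP60, minus strand) and Hspe1 (HSP10, plus strand) are divergent neighbours whose annotated starts lie within 250 bases of each other, so that 1 stretch with 4 units in a row counted for both, in 1 of the 2 Hspd1 promoters. All 24 bases printed here lie in an annotated Hspd1 exon of GENCODE M21. It is shown on the strand of Hspe1 with units in capitals and coordinates of the printed bases.
Hspe1, chr1:55088056-55088079: ccgTTCtaGAAccTTCcgGAAggc
Hspa1a and Hspa1b, the inducible cytosolic HSP70 genes, lie next to each other on the minus strand of chromosome 17, and 247 of the 250 bases before their starts are identical (98.8%). Their last 150 bases before the start, which lie in no annotated exon of GENCODE M21, are shown with the 2-unit match in capitals because both genes moved together in the mouse libraries.
Hspa1a, chr17:34972157-34972306: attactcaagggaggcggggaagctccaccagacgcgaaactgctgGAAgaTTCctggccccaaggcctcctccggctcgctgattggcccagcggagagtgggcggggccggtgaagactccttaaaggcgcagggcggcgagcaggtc
Hspa1b, chr17:34959239-34959388: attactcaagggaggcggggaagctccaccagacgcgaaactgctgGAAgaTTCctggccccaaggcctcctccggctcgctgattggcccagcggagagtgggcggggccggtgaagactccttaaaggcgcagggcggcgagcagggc
A match describes letters in these windows and not binding. Because these genes are nearly identical, the split of reads between them is uncertain.

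Levels are given in TPM, a share of all transcripts of a library on a fixed scale, which is per length. Rankings, ratios and sums across genes therefore rest on the deposited gene lengths, such as 1200 bases for Hsp90ab1 and 1985 for Hsp90aa1. These lengths were not checked, and changes of 1 gene between culture libraries do not depend on them in the same way. Library depth, recovered from TPM and gene length, was 23.0 to 32.3 M reads in culture and 19.2 to 56.9 M in the mouse libraries. In medium, Hsp90ab1 (the constitutive cytosolic HSP90) at 2124 ± 44.8 TPM and Hspa8 (the constitutive HSP70) at 1449.6 ± 29.3 TPM had the highest means of the 35 (SD, n = 2). In the same libraries, Hspa1a, Hspa1b and Hspb1 (a small heat shock protein) stayed at or under 1.17 TPM, as they did in all 8 culture libraries, and these genes fell below the mean of 1 TPM set for testing. The other 32 were tested in culture and all 35 in the mouse libraries.

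T cell markers were present in culture (10 of 10 listed markers detected, summed 3411 to 4332 TPM over the 8 libraries), and markers of other cells were present too. Summed B cell markers were 1546 to 1583 TPM in medium, 256 to 310 TPM with the antibodies and 1348 to 1371 TPM with the antibodies and TRAIL. Summed macrophage markers were 1264 to 1359, 34.3 to 39.4 and 379 to 464 TPM in the same order. Summed plasma cell markers were 3160 to 3233, 1889 to 2012 and 3147 to 3164 TPM, so the sums of these other cells were lowest with the antibodies alone. The plasma cell genes were divided: of 11 tested, 7 were lower and 2 higher on stimulation. Summed neutrophil markers were 324 to 354, 34.2 to 48.4 and 211 to 237 TPM, with 11 of 11 tested genes lower on stimulation, 11 of 11 higher when TRAIL was added, and Ly6g, a defining neutrophil gene, at or under 0.611 TPM in every culture library. In bulk RNA, fewer cells of a type and less RNA per cell cannot be told apart, and the part of this shift in the chaperone results was not tested. All 8 culture libraries were on sequencing lane 3.

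With the antibodies alone, transcripts of all 4 compartments were higher than in medium, and the mitochondrial set the most. The 35 genes together made up 0.944% and 0.956% of the 2 medium libraries, 2.55%, 2.78% and 2.75% of the 3 stimulated libraries, and 1.31%, 1.23% and 1.24% of the 3 libraries with TRAIL. Stimulated libraries were all above both other groups, and those with TRAIL were all above medium. By group means, the summed level rose 4.07-fold in mitochondria, 3.37-fold in the cytosol, 2.49-fold for TRiC/CCT and 1.93-fold in the ER. Most of the cytosolic sum with the antibodies came from Hsp90ab1 and Hspa8 (means of 8412 and 3938.5 of 14694 TPM). By the median of the tested genes the order of cytosol and TRiC/CCT was reversed, at 2.17-fold and 2.43-fold.

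**Figure D1:**
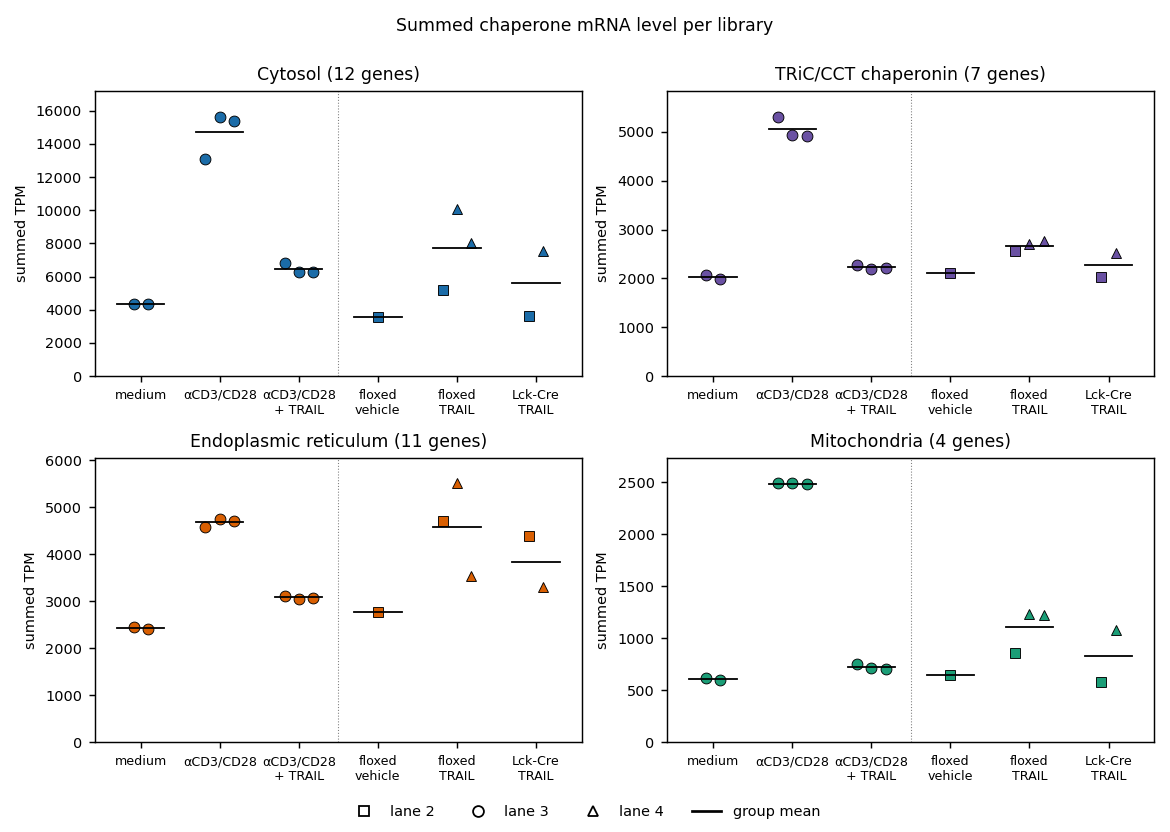
Summed TPM of the chaperone genes of each compartment in each of the 14 libraries; symbols give the sequencing lane and lines the group mean, and each vertical axis starts at 0. In all 4 panels the 3 stimulated culture libraries lie above the other culture libraries, and in the mouse libraries the cytosolic and mitochondrial sums of lane 4 lie above those of lane 2.

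Of the 32 tested genes, 27 rose and 4 fell on stimulation (limma, Benjamini-Hochberg adjusted p under 0.05, on log2(TPM + 1)), in a comparison where 76.5% of all 14035 tested genes were called (27.5% higher and 49% lower). Their median log2 fold change was 1.12, against -0.32 for all tested genes. When libraries were rescaled by the median of ratios, the median of all genes moved to 0.04, 28 of the 32 were higher and 1 was lower, and over all genes 5608 were higher and 4987 lower in place of 3857 and 6884. All 27 rises kept their call in each of the 15 alternatives tried.

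Among the cytosolic genes 8 of 9 tested rose and Bag3 fell, with a median of 1.12. Hsp90aa1, the inducible HSP90, was at 279 and 269 TPM in medium, 1422, 1371 and 1352 TPM with the antibodies, and 375, 354 and 356 TPM with TRAIL. Hsp90ab1 was at 2092 and 2155, then 7087, 9099 and 9049.7, then 3399, 2988 and 2988 TPM. For both HSP90 genes the 3 groups did not overlap, with the stimulated libraries highest and medium lowest. Hsp90aa1 rose by a log2 fold change of 2.33 ± 0.06 (SE; limma adjusted p = 4.2e-08) and Hsp90ab1 by 1.98 ± 0.12 (limma adjusted p = 2e-06). The ratio of Hsp90ab1 to Hsp90aa1 TPM was 7.49 to 8.02 in medium, 4.98 to 6.69 with the antibodies and 8.40 to 9.06 with TRAIL, so it was lowest in the stimulated libraries.

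The HSP70 cycle followed in the same direction. Hspa8 was at 1470.3 and 1429 TPM in medium, 3648, 4164 and 4004 TPM with the antibodies and 2426, 2352 and 2354 TPM with TRAIL, without overlap between groups. Its log2 fold change on stimulation was 1.44 ± 0.07 (limma adjusted p = 6.6e-07). Hsph1, an HSP110 exchange factor for HSP70, was at 51.6 and 52.2, then 148, 190.0 and 182, then 78.4, 70.2 and 70.6 TPM. It rose by 1.71 ± 0.11 (limma adjusted p = 2.9e-06), and the other HSP110 gene, Hspa4, rose by 1.12 ± 0.07. The HSP40 partners rose less: Dnaja2 by 0.74, Dnaja1 by 0.59 and Dnajb1 by 0.35 on the log2 scale.

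Bag3, an exchange factor that links HSP70 to selective autophagy, went the other way. It was at 9.73 and 11.2 TPM in medium, 3.20, 5.07 and 4.43 TPM with the antibodies, and 10.9, 10.5 and 10.7 TPM with TRAIL. The stimulated libraries were all below the others, and those with TRAIL lay within the range of medium. The log2 fold change was -1.14 ± 0.15 on stimulation (limma adjusted p = 0.0002), and Bag3 was also called lower after rescaling. Hsf1 itself was at 74.3 and 74.4 TPM in medium, 50.0, 54.9 and 58.3 TPM with the antibodies and 65.8, 62.9 and 63.1 TPM with TRAIL. Hsf1 was lowest in the stimulated libraries, with no overlap (-0.45 ± 0.08, limma adjusted p = 0.00079). After rescaling that fall was -0.06 and was not called (limma adjusted p = 0.41).

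All 7 TRiC/CCT subunits rose, within a narrow range of 0.95 (Cct4) to 1.64 (Cct7), with a median of 1.28. Tcp1, the alpha subunit, was at 227 and 215 TPM in medium, 697, 604 and 594 TPM with the antibodies and 263, 242 and 251 TPM with TRAIL. Cct3 was at 133 and 133, then 427, 401 and 410.4, then 145, 146 and 144 TPM, and Cct7 at 159.8 and 155, then 522, 482 and 475, then 189, 187 and 179 TPM. In these 3 subunits the stimulated libraries were at least 2-fold above every other culture library. The adjusted p-values from limma for the 7 subunits lay between 1.1e-07 and 8.5e-06, and Cct8 (1.28), Cct2 (1.28) and Cct5 (1.25) lay in the middle of the range of changes. Cct6a, which encodes a further subunit of the same ring and is not among the 35, moved from 230.8 ± 10.8 to 804.8 ± 34.8 TPM on stimulation (1.80 ± 0.06, limma adjusted p = 1.2e-07).

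The ER genes were the most divided: 8 of 11 rose, 2 fell and Pdia4 was not called, with a median of 0.78. Hspa5 (BiP, the ER HSP70) was at 289.9 and 286 TPM in medium, 944, 880.1 and 864 TPM with the antibodies and 418, 405 and 404 TPM with TRAIL. Hsp90b1 (GRP94, the ER HSP90) was at 351 and 334, then 576, 600.3 and 593, then 422, 400.1 and 408 TPM. Neither gene had overlapping groups, and with stimulation Hspa5 went from below to above Hsp90b1 in TPM, from a ratio of 0.827 to 0.856 in medium to 1.46 to 1.64. Hspa5 rose by 1.63 ± 0.06 (limma adjusted p = 1.6e-07) and Hsp90b1 by 0.78 ± 0.06 (limma adjusted p = 5.3e-06).

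The lectin chaperone Calr was at 539 and 533 TPM in medium, 1085, 1225 and 1201 TPM with the antibodies, and 787, 783 and 779.9 TPM with TRAIL, and the membrane-bound Canx rose by 0.94 ± 0.07. The disulfide isomerase Pdia6 was at 119 and 122, then 305, 264 and 277, then 155, 146 and 149.6 TPM. In Calr and Pdia6 the groups with TRAIL lay between the other groups without overlap. P4hb (PDI) rose by 1.03 ± 0.05 and Pdia3, which works with the lectins, by 0.56 ± 0.05. Pdia4 was at 143 and 145, then 139, 146 and 145, then 149, 149.8 and 155 TPM, with an interval of the change on stimulation from -0.14 to 0.12. After rescaling Pdia4 was called higher on stimulation (0.38, limma adjusted p = 0.00081).

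The ER genes that fell are J-domain proteins that assist BiP. Dnajb9 was at 40.7 and 38.7 TPM in medium, 28.4, 25.1 and 23.6 TPM with the antibodies and 42.7, 38.5 and 40.4 TPM with TRAIL, and Dnajc3 at 70.5 and 69.0, then 49.5, 56.4 and 54.4, then 68.7, 65.4 and 68.8 TPM. Both were lowest in all 3 stimulated libraries. The log2 fold changes were -0.61 ± 0.09 and -0.38 ± 0.07 (limma adjusted p = 0.00038 and 0.0015). After rescaling they were -0.23 and 0.01 and neither was called (limma adjusted p = 0.14 and 0.90). Another ER J-domain protein, Dnajb11, rose by 0.67 ± 0.08 (limma adjusted p = 7.3e-05). Of the 6 genes with an ERSE match, 5 rose and Dnajc3 was the exception, beside 8 of all 11 ER genes and 27 of all 32 tested chaperones. The rise was thus not particular to genes with a match.

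Hspd1 and Hspe1, which share the stretch of 4 heat shock units, and the mitochondrial HSP70 Hspa9 rose the most of the mitochondrial genes. Hspd1 was at 187 and 181 TPM in medium, 1019, 1043 and 1025 TPM with the antibodies and 262, 246 and 226 TPM with TRAIL. Hspe1 was at 97.9 and 97.1, then 503, 404 and 409.8, then 139.8, 132 and 136 TPM, and Hspa9 at 212 and 199, then 779, 833 and 836, then 233, 213 and 224 TPM. The stimulated libraries stood over 2-fold above all others in these genes, and the group with TRAIL was above medium without overlap. The log2 fold changes on stimulation were 2.48 ± 0.07 for Hspd1, 2.15 ± 0.10 for Hspe1 and 1.98 ± 0.07 for Hspa9 (limma adjusted p = 6.3e-08, 4.2e-07 and 1.2e-07). Trap1, the mitochondrial HSP90, rose by 0.70 ± 0.07, so that the mitochondrial HSP90 moved less than the mitochondrial HSP70 while in the cytosol Hsp90aa1 moved more than Hspa8.

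**Figure D2:**
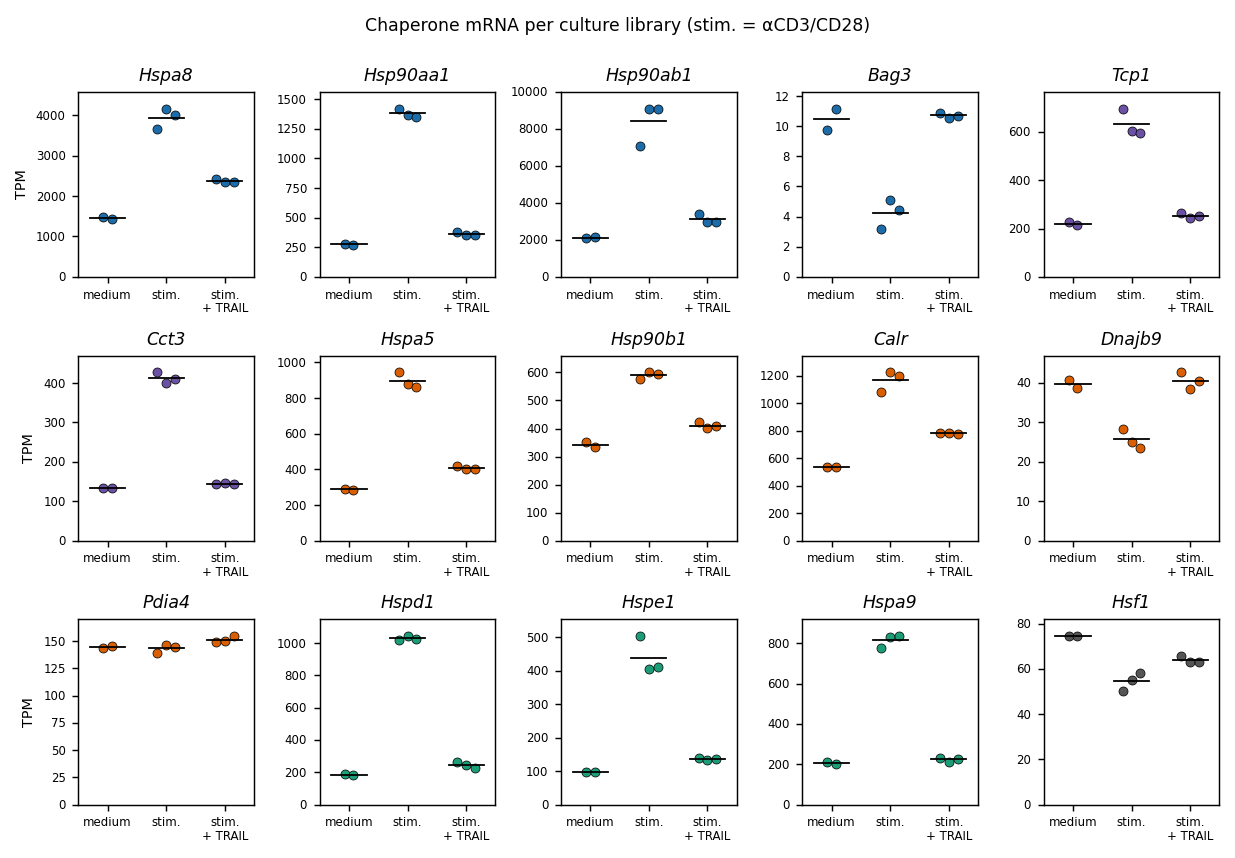
TPM of 15 chaperone genes in each culture library (points) with the group mean (line); each vertical axis starts at 0, and colours mark the compartment. Most genes peak in the stimulated libraries, Bag3, Dnajb9 and Hsf1 are lowest there, and Pdia4 lies between 139 and 155 TPM throughout.

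With TRAIL added to the antibodies, 27 of the 32 tested genes were lower and 4 were higher than with the antibodies alone, in a comparison where 76.7% of all genes were called (48.1% higher and 28.6% lower). The median was -0.93, against 0.25 for all tested genes. After rescaling 28 were lower and 2 were higher, and 5157 genes were higher and 5631 lower in all, in place of 6746 and 4019. This comparison shares the stimulated libraries with the one above, so its values follow from the same libraries and are given side by side. The medians were -1.77 for mitochondria, -1.16 for TRiC/CCT, -0.73 for the cytosol and -0.52 for the ER. The range of falls ran from -2.07 ± 0.06 for Hspd1 and -1.93 ± 0.05 for Hsp90aa1 to -0.14 ± 0.05 for Pdia3 (limma adjusted p = 8.2e-08, 5.7e-08 and 0.023). Bag3 was higher by 1.18 ± 0.14, Dnajb9 by 0.64 ± 0.08, Dnajc3 by 0.34 ± 0.07 and Hsf1 by 0.23 ± 0.07 (limma adjusted p = 8.8e-05, 0.00015, 0.0017 and 0.014). After rescaling Hsf1 was at -0.09 and Dnajc3 at 0.02, neither of them called, and Pdia4 was called lower at -0.24. The falls of 26 genes, all but Pdia3, and the rises of Bag3 and Dnajb9 kept their call in each of the 15 alternatives tried.

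**Figure D3:**
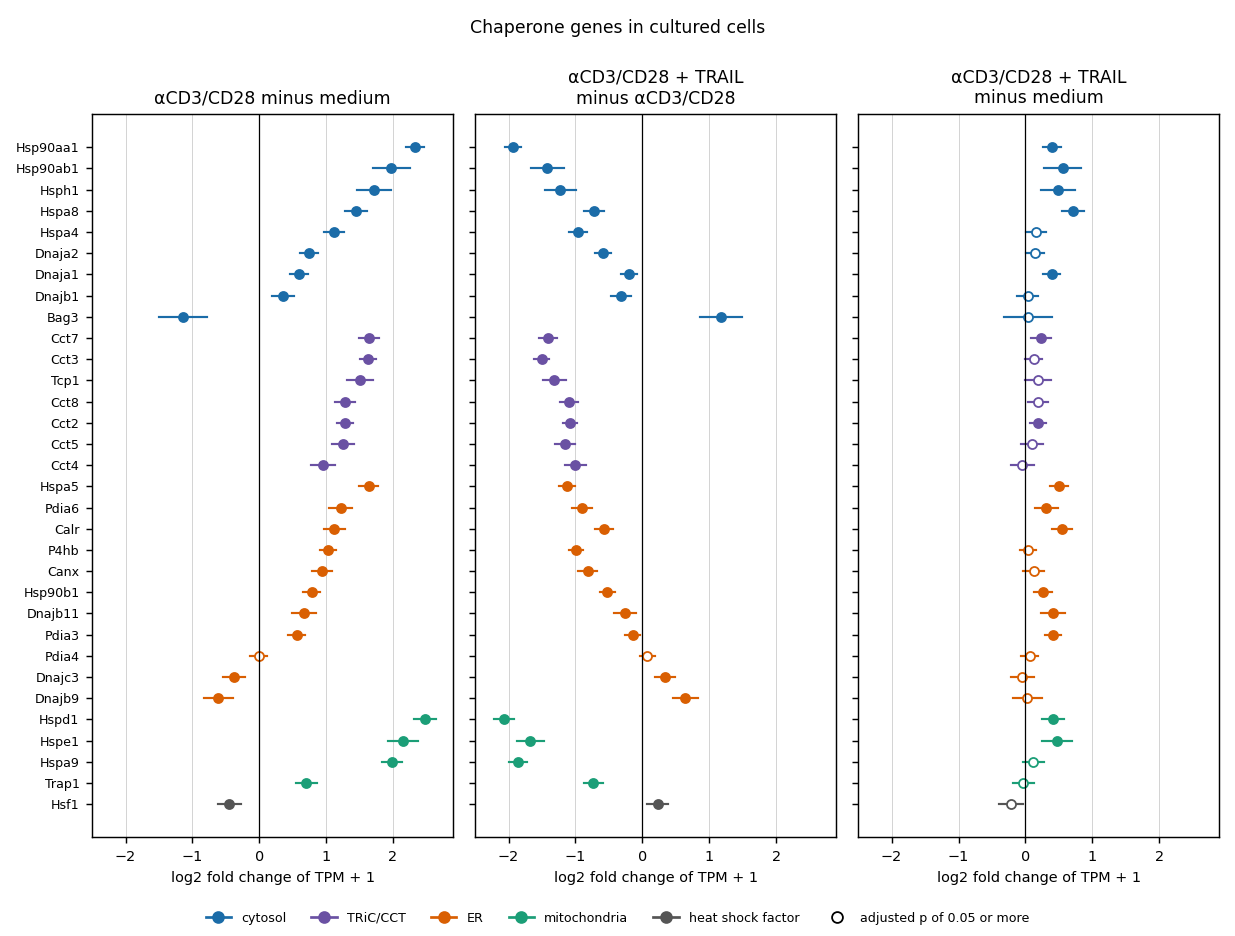
Log2 fold change of TPM + 1 with its 95% interval for the 32 tested genes in 3 culture comparisons, grouped by compartment; filled points passed the limma adjusted p of 0.05 and open points did not. The first 2 panels share the stimulated libraries; in the third, all changes lie between -0.22 and 0.71.

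The compartments kept different shares of the rise when TRAIL was present. The share is the difference between each library with TRAIL and the medium mean, divided by the difference between the stimulated and medium means. Of the summed ER level, 27.7% to 30.7% of the rise remained over the 3 libraries, and of the cytosolic level 18.6% to 23.9%. For TRiC/CCT 5.16% to 8.49% remained and for mitochondria 5.04% to 7.83%. The order of ER, then cytosol, then the other compartments was the same in all 3 libraries, and after rescaling the shares were 20.6% to 22.8%, 14.9% to 18.9%, 5.61% to 8.07% and 5.06% to 6.97%. TRiC/CCT and mitochondria did not differ beyond this spread. Within compartments the genes differed: in the ER, Pdia3 kept 70.3% of its rise, Dnajb11 55.5%, Calr 39.0% and P4hb 2.33%. In the cytosol Dnaja1 kept 61.2% and Hspa8 37.3%, while Hsp90aa1 kept 7.91%. These shares are descriptions of 8 libraries and were not tested.

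Set directly against medium, the libraries with antibodies and TRAIL had 15 of 32 genes higher and 0 lower, with 17.2% of all genes called (7.25% higher and 9.93% lower) and a median of 0.19 against -0.06 for all. The 5 cytosolic genes were Hspa8 (0.71 ± 0.07, limma adjusted p = 0.00046), Hsp90ab1 (0.55 ± 0.12), Hsph1 (0.48 ± 0.11), Hsp90aa1 (0.40 ± 0.06) and Dnaja1 (0.39 ± 0.06). The 6 ER genes were Calr (0.55 ± 0.07, limma adjusted p = 0.0012), Hspa5 (0.50 ± 0.06), Dnajb11 (0.41 ± 0.08), Pdia3 (0.41 ± 0.05), Pdia6 (0.31 ± 0.07) and Hsp90b1 (0.26 ± 0.06). In mitochondria Hspe1 (0.48 ± 0.10) and Hspd1 (0.41 ± 0.07) were higher while Hspa9 (interval -0.03 to 0.27) and Trap1 (-0.19 to 0.12) were not called, and of TRiC/CCT only Cct2 (0.19) and Cct7 (0.23) passed. Calr, Dnaja1, Hsp90aa1, Hspa5, Hspa8 and Pdia3 were called in all 15 alternatives. The count of 15 was 7 without medium replicate 1, 6 without medium replicate 2, 8 without TRAIL replicate 1, and 9 in a fit with the replicate number as a block, and rescaling gave 14. At 0 lower, Hsf1 had a log2 fold change of -0.22 (limma adjusted p = 0.094) and was called lower when stimulated replicate 1 was left out.

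Genes that work with these chaperones were read from lists chosen with results of these data known, beside a background of 27.5% of all genes higher and 49% lower on stimulation, and 7.25% higher and 9.93% lower with TRAIL than in medium. Of 20 cytosolic co-chaperones, 15 rose and 4 fell on stimulation (median 0.87), and 5 were higher and 0 lower than medium with TRAIL. Stip1, which passes clients from HSP70 to HSP90, went from 106.7 ± 2.67 TPM in medium to 414.7 ± 45.3 with the antibodies and 151.6 ± 4.14 with TRAIL, and Fkbp4, an HSP90-binding immunophilin, from 112.3 ± 6.81 to 360.3 ± 6.97 and 134.5 ± 1.55. Bag2, which slows the degradation of HSP70 clients, went from 3.26 ± 0.324 to 25.5 ± 2.16 and 3.95 ± 0.409 TPM, in the direction opposite to its relative Bag3. Dnajc7, a J-domain protein that binds both HSP70 and HSP90, fell from 690.7 ± 53.1 to 271.4 ± 8.27 and was at 669.5 ± 17.8 TPM with TRAIL. Of 9 tested genes of prefoldin and other CCT factors, 7 rose and 1 fell on stimulation, and 1 (Pfdn2) was higher than medium with TRAIL.

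In the ER, 8 of 12 regulators of the unfolded protein response rose and 3 fell on stimulation (median 0.52). Xbp1, a transcription factor of that response, went from 107.9 ± 7.41 to 384.4 ± 19.1 TPM and was at 132.1 ± 5.70 TPM with TRAIL, and Atf4, the factor of its translation arm, from 243.2 ± 11.8 to 828.0 ± 43.9 and 283.7 ± 5.95. Eif2ak3 (PERK), a sensor of unfolded proteins, fell from 48.3 ± 0.425 to 16.7 ± 2.71 TPM. Trib3, a pseudokinase induced through Atf4, rose from 33.1 ± 1.66 to 109.0 ± 4.95 TPM and was below medium with TRAIL at 15.5 ± 0.663 TPM (-1.05 ± 0.07, limma adjusted p = 7.5e-05), while Ddit3 (CHOP) was above medium with TRAIL (0.40 ± 0.09, limma adjusted p = 0.020). Of 22 other ER folding genes 11 rose and 5 fell on stimulation (median 0.21). The paired oxidases for disulfide bonds split: Ero1l rose from 43.5 ± 2.25 to 233.5 ± 25.8 TPM, and Ero1lb fell from 45.0 ± 2.38 to 14.6 ± 0.933. Of 19 genes of ER translocation and degradation, 10 rose and 8 fell, with Ssr2 (1.36) and Sec61g (1.34) the largest rises and Derl3 (-1.31) the largest fall.

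Of 19 genes of mitochondrial import, folding and proteolysis, 16 rose and 1 fell on stimulation (median 0.65), led by Timm23 (1.66 ± 0.06), Timm50 (1.59 ± 0.09), the protease Lonp1 (1.56 ± 0.13) and the import pore Tomm40 (1.55 ± 0.07). With TRAIL, 2 of the 19 were higher than medium, Hscb (0.36) and Timm23 (0.35), and 0 were lower, a share of higher genes near the background of 7.25%. A further list held heat shock factors, small heat shock genes and other HSP70 family genes. Of its 7 tested genes, 2 rose, near the background of 27.5%, and 2 fell on stimulation, and 0 were called against medium with TRAIL. Hsf2 rose by 0.34 ± 0.08 and Hspa13 by 0.51 ± 0.09, and Hspb6 and Hspa12a fell by 0.81 and 0.77 on the log2 scale.

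The mouse libraries held RNA of many other cells, whatever their label of CD4 T cells. Summed T cell markers were 568 to 2048 TPM, against 18272 to 97886 TPM for neutrophil markers and 11279 to 21554 TPM for plasma cell markers. The vehicle library, TRAIL-R f/f replicate 1 and Lck Cre replicate 1 were on lane 2 and the other 3 on lane 4. The neutrophil markers followed the lane, at 73829, 87195 and 97886 TPM on lane 2 and 27783, 18801 and 18272 TPM on lane 4. The bracketed names of the lane 2 libraries of Lck Cre mice and of vehicle (B6_spleen) carry no TRAIL tag, unlike those on lane 4, so lane, cell makeup and possibly treatment cannot be told apart between them. Tnfrsf10b, the mouse TRAIL receptor gene, checks the labels only in part, since other cells keep it: it was at 2.04 and 3.50 TPM in the Lck Cre libraries, at 1.64, 1.46 and 2.31 TPM in the TRAIL-R f/f libraries given TRAIL and at 1.82 TPM with vehicle, and so was not lower in the Lck Cre libraries.

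The inducible HSP70 genes, which were near 0 in culture, differed more than any other chaperone among the mouse libraries. Hspa1a was at 0.726 TPM with vehicle, 5.01 in TRAIL-R f/f replicate 1 and 1.05 in Lck Cre replicate 1, all of lane 2, and at 148 and 239 in TRAIL-R f/f replicates 2 and 3 and 244 in Lck Cre replicate 2, all of lane 4. Hspa1b was at 1.60, 12.0 and 2.37 TPM in the libraries of lane 2 and at 321, 479 and 497 TPM in those of lane 4, in the same order. The lanes did not overlap, and both genotypes given TRAIL were on either side of the gap. TRAIL-R f/f replicate 1 was the highest library of lane 2 in both genes.

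The same libraries were high for several other heat shock genes, though not for all. Dnajb1 (an HSP40) was at 28.8, 29.4 and 26.7 TPM on lane 2 and 78.5, 84.4 and 87.2 TPM on lane 4, Bag3 at 4.21, 5.09 and 5.49 and then 12.0, 12.3 and 10.8 TPM, and Hsp90ab1 at 1348, 1547 and 1144 and then 3981, 2998 and 2913 TPM. Hspe1 was at 173, 171 and 137 TPM on lane 2 and 347, 307 and 292 TPM on lane 4, and Hsf1 at 34.2, 24.2 and 28.6 and then 47.9, 47.2 and 52.2 TPM. In each of these 5 genes the lanes did not overlap. Hsp90aa1, the inducible HSP90, did overlap, at 417, 894 and 479 TPM on lane 2 and 1122, 944 and 816 TPM on lane 4. Of the 35 genes, 20 had every lane 4 library above every lane 2 library, against 36% of all 14176 tested genes, and 0 were below, against 10.7%.

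A fit with lane as a term, on top of the group, was chosen after the lanes were seen to stand apart. The vehicle library is alone in its group there, so the lane estimates come from the libraries given TRAIL. The fit called 10 of 35 genes higher on lane 4 and 0 lower (limma adjusted p under 0.05), with 27.4% of all genes called (20.9% higher and 6.53% lower). The median was 0.38 against 0.27 for all. Hspa1b (5.90 ± 0.55) and Hspa1a (5.80 ± 0.49) were followed by Dnajb1 (1.54 ± 0.11), Hsp90ab1 (1.24 ± 0.23), Hspb1 (1.23 ± 0.27), Bag3 (1.00 ± 0.15), Hspe1 (1.00 ± 0.11), Hsf1 (0.90 ± 0.10), Hspa9 (0.48 ± 0.11) and Cct7 (0.46 ± 0.11), with limma adjusted p between 0.020 and 0.044. The medians were 1.07 for the cytosol, 0.61 for mitochondria, 0.27 for TRiC/CCT and -0.22 for the ER, where 0 of 11 genes were called. After rescaling, which moved the median of all genes to 0.03, Hspa1a, Hspa1b, Dnajb1, Bag3, Hspe1 and Hsf1 were still called higher and Dnajc3 was called lower (-0.65). Hsp90aa1 was called neither before nor after rescaling (0.18 after it, limma adjusted p = 0.53). Over all genes, rescaling gave 885 higher and 1468 lower in place of 2960 and 925.

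Immediate early genes, which respond within minutes to stimuli and to handling of cells, were high in the same libraries. Their summed level was 1081, 1598 and 1256 TPM on lane 2 and 3032, 2691 and 2857 TPM on lane 4, and 9 of 13 were called higher on lane 4 and 1 lower in the same fit. Fosb had the largest difference (3.44 ± 0.15, limma adjusted p = 0.020). In that fit T cell markers were also called higher on lane 4 (9 of 10) and neutrophil markers lower (6 of 12 called, 0 higher). Over all genes 20.9% were called higher and 6.53% lower. Besides neutrophils, the summed markers of macrophages and of erythroid cells and platelets were lower in every lane 4 library than in every lane 2 library. Those of B cells and dendritic cells were higher in every lane 4 library. The T cell sums did not separate by lane. They were 2048 TPM with vehicle, 568 in TRAIL-R f/f replicate 1 and 1240 in Lck Cre replicate 1 on lane 2. On lane 4 they were 1280 and 1720 TPM in TRAIL-R f/f replicates 2 and 3 and 2006 in Lck Cre replicate 2. The sums of plasma cell markers and of CD8 T and NK cell markers also overlapped between lanes. What part handling or cell makeup has in the lane difference of the heat shock genes was not tested.

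**Figure D4:**
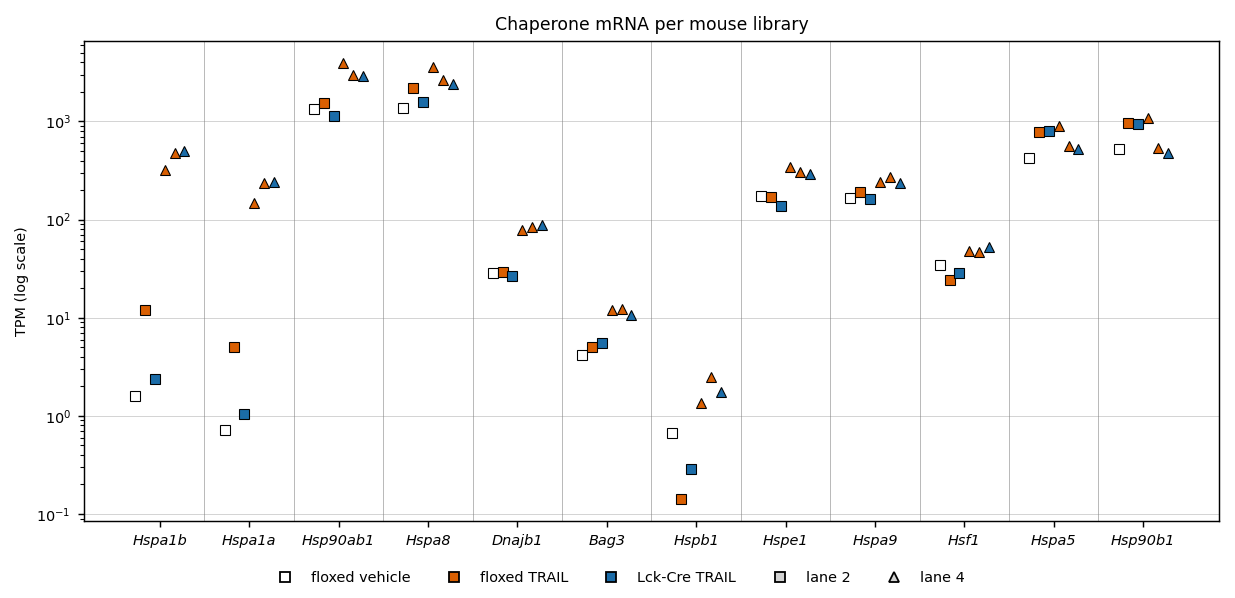
TPM on a log scale of 12 chaperone genes in each of the 6 mouse libraries; colours give the group (floxed stands for TRAIL-R f/f) and symbols the sequencing lane. Hspa1a and Hspa1b are at or under 12.0 TPM in every lane 2 library and at or above 148 TPM in every lane 4 library, whereas Hspa5 and Hsp90b1 do not separate by lane.

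Lck Cre libraries were set against TRAIL-R f/f libraries, both given TRAIL, to ask what the receptor on T cells changes. No chaperone and none of the 14176 tested genes passed (0% called; limma), with 106 genes, or 0.748%, at an unadjusted p under 0.05, and a fit with a lane term also called 0 of 14176, with 884 genes, or 6.24%, at an unadjusted p under 0.05. Of the 35 genes, 34 had log2 fold changes below 0, against 57.8% of all genes, with a median of -0.26 against -0.04 for all. Some compartment medians changed direction when 1 library was left out: without Lck Cre replicate 1 the medians were 0.055 in the cytosol and 0.059 in mitochondria, and without Lck Cre replicate 2 the ER median was 0.082. With the lane term 33 of 35 were below 0, against 51.2%, and the median was -0.23 against -0.01. Within each lane, 25 of 35 were lower in the Lck Cre library on both lanes, against 29% of all genes. The members were measured in the same libraries and are not replicates, so these counts describe 5 libraries.

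With the lane term, the 95% interval before adjustment lay below 0 for 4 of the 35 genes, Hspd1, Hsp90aa1, Canx and Cct3. Over all genes, 6.24% had an unadjusted limma p under 0.05 in either direction, and the share below 0 alone was not counted. Of the 4 genes, Hspd1 and Hsp90aa1 had the larger changes. Hspd1 was at 384 TPM in TRAIL-R f/f replicate 1 and 206 in Lck Cre replicate 1 on lane 2, and at 508 and 480.3 in TRAIL-R f/f replicates 2 and 3 and 407 in Lck Cre replicate 2 on lane 4. Hsp90aa1 was at 894 and 479 TPM on lane 2 and at 1122, 944 and 816 TPM on lane 4 in the same order. In both genes the Lck Cre library was the lowest of its lane among mice given TRAIL, and across lanes the groups overlapped in Hspd1 but not in Hsp90aa1. With the lane term the log2 fold changes were -0.54 for Hspd1 (95% interval -0.99 to -0.09) and -0.58 for Hsp90aa1 (-1.08 to -0.07), both with a limma adjusted p of 0.70. For Hspa5 the interval was -0.92 to 0.46 and for Hspa1b -2.08 to 0.80, so changes in either direction lay within these intervals.

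The single vehicle library was low in most chaperones. In 30 of 35 genes it was below all 3 TRAIL-R f/f libraries given TRAIL, against 30.4% of all genes, and in 19 of 35 below all 5 libraries given TRAIL, against 14.4%. It was above all 3 in 0 genes, against 20.4% of all genes. The mean of the TRAIL-R f/f libraries given TRAIL was 1 or more above vehicle on the log2 scale in 7 genes (Hspa1a, Hspa1b, Hsph1, Hsp90aa1, Calr, Hspd1 and Hspa8), against 3.36% of all genes, and in 0 genes 1 or more below it, against 2.69%. All 35 means were above vehicle, against 57.9% of all genes. The mean of the Lck Cre libraries was above vehicle in 31 of 35 genes, against 56.1%, by 1 or more in 2 genes, Hspa1a and Hspa1b, against 1.2%, and 1 or more below it in 0, against 0.677%. With 1 vehicle library there is no test. The vehicle library also had the highest erythroid and platelet markers (22327 TPM, against 2125 to 8195 TPM in the others) and the lowest plasma cell markers.

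Within lane 2 the comparison with vehicle holds the lane fixed. There TRAIL-R f/f replicate 1 was above vehicle in 31 of 35 genes, against 46.3% of all genes, and by 1 or more in 4 (Hspa1a, Hspa1b, Hsp90aa1 and Calr), against 3.46%. Its median difference was 0.70 for the ER, 0.47 for the cytosol, 0.29 for TRiC/CCT and 0.19 for mitochondria, against -0.04 for all genes. Lck Cre replicate 1 differed from vehicle by a median of 0.61 in the ER, 0.20 in the cytosol, 0.01 for TRiC/CCT and -0.18 in mitochondria, against -0.12 for all genes. Hspa5 was at 422 TPM with vehicle, 773 in TRAIL-R f/f replicate 1 and 803 in Lck Cre replicate 1, and Hsp90b1 at 527, 958 and 952 TPM. The ER genes were not alike in this: Calr was at 383, 804 and 619 TPM, and Canx, at 201, 327 and 225 TPM, had the Lck Cre library near vehicle, as had Hspd1 (205, 384 and 206 TPM). Plasma cells make antibody and have a large ER. Their summed markers were 11279 TPM with vehicle, 17089 in TRAIL-R f/f replicate 1 and 21554 in Lck Cre replicate 1. The summed ER genes were also lowest with vehicle (2779 TPM), but were higher in TRAIL-R f/f replicate 1 (4694) than in Lck Cre replicate 1 (4381). On lane 4 the plasma cell sums were 19187, 18978 and 16913 TPM in TRAIL-R f/f replicates 2 and 3 and Lck Cre replicate 2. The ER sums there were 5503, 3541 and 3293 TPM in the same order. The part of plasma cells in the ER levels was not tested. The marker list itself includes the ER-related genes Xbp1, Derl3, Fkbp11 and Txndc5, so it is not independent of ER content.

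**Figure D5:**
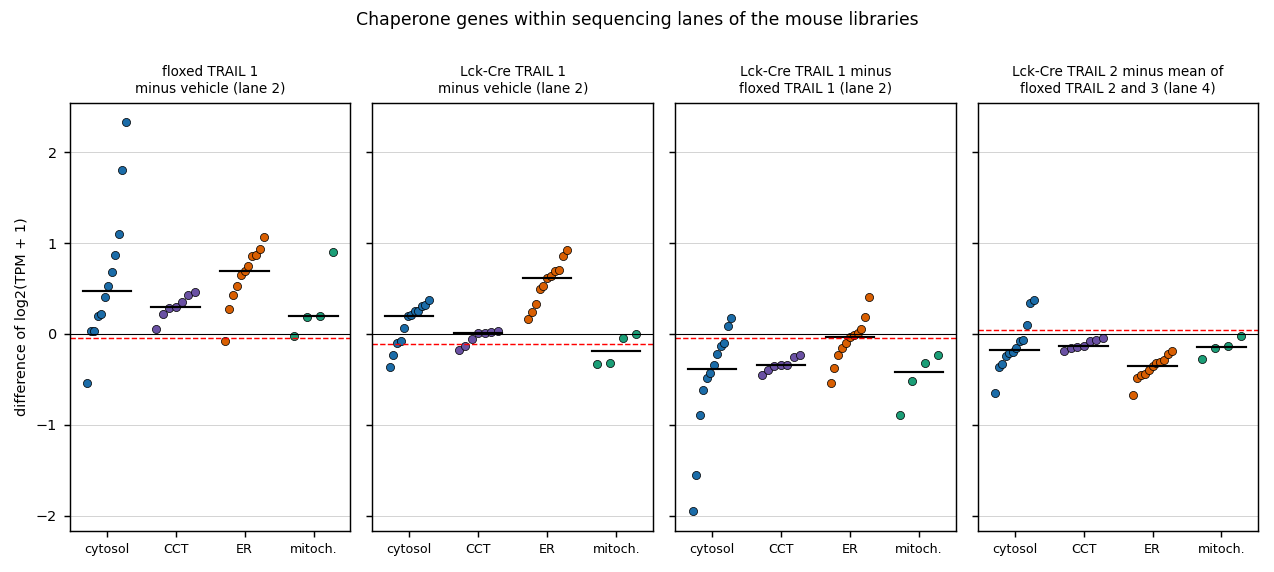
Differences of log2(TPM + 1) between mouse libraries of the same sequencing lane for the genes of each compartment (points), with the compartment median (black line) and the median of all tested genes (red dashed line). Medians of the ER genes are 0.70 and 0.61 above vehicle in the first 2 panels, and all 4 medians are below 0 in the last 2. In the third panel the ER median (-0.034) is not below that of all tested genes (-0.048).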

How the data were processed

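RNA of 14 libraries was read from 2 gene tables, with TPM values as deposited by the authors (for the mouse table the unit was inferred from the values). Gene length in bases, a further column deposited by the authors, was used to recover reads (19.2 to 56.9 M per library), and no interval here rests on counts. Per the submitters' processing notes, the build was GRCm38.p6 and the tools were HISAT2 2.1.0, StringTie 2.1.4, Trimmomatic 0.36, DESeq2 1.26.0, SAMtools 1.2 and bcl2fastq, with no roles given. The strand setting of counting is not given in the sources used here, so overlapping and near-identical genes may share reads.

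Genes averaging 1 TPM or more were tested on log2(TPM + 1) with limma 3.58.1 (R 4.3.3, moderated with a trend), in 1 fit of the 8 culture libraries and 1 of the 6 mouse libraries, adjusted over all tested genes by Benjamini-Hochberg at 0.05; fold changes of low genes are understated by the pseudocount. The fit was tested on simulated data with independent noise and no lane difference, so that test does not cover the lane difference of the mouse libraries. Alternatives were pseudocounts of 0.1 and 0.5, no filter or a mean of 5 TPM, median-of-ratios scaling, no variance trend, each replicate left out, a replicate block, a lane term, no vehicle library, and TRiC/CCT counted with the cytosol. The comparison of lanes, its rescaled form and the fit of lane 4 alone were chosen after seeing the data.

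All 35 genes are accounted for. Values in every library were given for the genes of each compartment that moved most in a comparison and for the paralogous or paired genes, and up to 4 genes with the largest called changes were named from each pathway list in each comparison; other library values were chosen after they were seen. The genes and lists were chosen with earlier results of these data known. Replicate numbers did not pair the culture libraries, and in the mouse libraries the same number meant the same lane (correlations of deviations 0.696 and 0.22).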

Additional observations from a re-analysis of the deposited data

How the results depend on the processing

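The culture rises on stimulation, and the falls with TRAIL of every gene but Pdia3, kept their calls under all 15 alternatives, and leaving out a replicate gave 27 rises and 4 falls on stimulation each time. Median-of-ratios scaling changed the genes near 0: on stimulation 1 gene was lower in place of 4, with Dnajc3 at 0.0086 and Pdia4 at 0.38, and with TRAIL against the antibodies 2 were higher in place of 4, with Pdia4 at -0.24 and Hsf1 at -0.086. The cause was not tested beyond the rescaling itself.

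The comparison of TRAIL and antibodies with medium was the least stable of the culture results: leaving out a replicate gave 6 to 21 genes higher, 0 to 1 lower and 902 to 5441 called among all genes. With the replicate number as a block it gave 9 higher and 1356 called among all genes, in place of 15 and 2411. The numbers do not pair the culture libraries: correlations of same-numbered deviations ran from -0.134 to 0.0777.

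In the mouse libraries no alternative called a gene between Lck Cre and TRAIL-R f/f, with the replicate block or without. Leaving out a replicate moved the medians of that comparison from -1.03 to 0.055 in the cytosol, from -0.35 to 0.082 in the ER and from -0.85 to 0.059 in mitochondria. The positive ends came without Lck Cre replicate 1 (cytosol and mitochondria) or Lck Cre replicate 2 (ER), each of which leaves 1 library in that group, assumed to vary like the others. Scaling moved the lane comparison to 6 higher, 1 lower and 2353 called among all genes, and within lane 2 the 7 genes at least 1 above vehicle became 4. The mouse comparisons rest on 1 vehicle library and 3 libraries per lane. In the lane fit the vehicle library is alone in its group and adds nothing to the lane estimates.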
